A study of Mus musculus with 14 samples.

Results

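The miR-181 family was counted in small extracellular vesicles, membrane particles that cells release, from mouse neutrophils kept for 48 h with 27-hydroxycholesterol (27HC, 10 µM), an oxidised form of cholesterol, or with DMSO as the control. Per the labels, the neutrophils were primary Ly6G+ cells from bone marrow, the mice were BALB/c females and wild type, and each group has 7 libraries. The series asks how vesicles of 27HC-exposed neutrophils act on breast cancer cells, and the comparison asks whether 27HC changed the vesicles' content of this family. Members were the 7 table columns whose name equals a listed one: the 5p strands mmu-miR-181a-5p, mmu-miR-181b-5p, mmu-miR-181c-5p and mmu-miR-181d-5p and the 3p strands mmu-miR-181a-1-3p, mmu-miR-181a-2-3p and mmu-miR-181c-3p, written here without the mouse prefix mmu. All 7 were present among 1695 mature miRNA names, and 6 of them passed the filter on low counts, miR-181a-1-3p being the exception. The labels give each library a pair of consecutive numbers whose meaning is not stated, and do not say whether each came from its own animals or from pooled or repeated preparations. The p-values therefore measure the spread between these libraries, which may be technical.

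MicroRNAs (miRNAs) are short RNAs that guide Argonaute proteins to messenger RNAs and repress them, mainly through pairing of the seed, bases 2 to 8 of the miRNA. A hairpin can give a strand from each of its arms, 5p and 3p, and usually one strand is kept as the guide while the other is mostly degraded. The miR-181 family is known from blood cells: miR-181a was among the first miRNAs tied to the choice of the lymphoid lineage, and in thymocytes it sets the sensitivity of T cell receptor signalling by repressing phosphatases.

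The mature sequences, from RefSeq with the build GRCm38.p6, show what joins and what separates the members, and all 7 were matched by name. The 4 strands of the 5p arms carry 1 seed, printed in capitals:
miR-181a-5p: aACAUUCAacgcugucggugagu
miR-181b-5p: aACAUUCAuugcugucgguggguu
miR-181c-5p: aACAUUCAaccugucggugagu
miR-181d-5p: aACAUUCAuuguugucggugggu

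Counting positions from 1 at the 5′ end, miR-181b-5p differs from miR-181a-5p by A9U, C10U and A21G and by 1 base added at its end. miR-181d-5p has the same changes A9U, C10U and A21G, plus C12U. From miR-181b-5p it therefore differs by C12U and by 1 base at the end. miR-181c-5p lacks the G at position 11 of miR-181a-5p and is otherwise the same. The 5p strands thus form the pairs a with c and b with d, and how the authors assigned reads that fit both names of a pair is not given in the sources used here. Of the 1695 names, 1431 had a mature sequence to compare, and none of those outside the family lay within 5 single-base changes, gains or losses of a member or shared the seed ACAUUCA.

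The 3p strands were shown because they tell the hairpins apart, which miR-181a-5p cannot do:
miR-181a-1-3p: aCCAUCGAccguugauuguacc
miR-181a-2-3p: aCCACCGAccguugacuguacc
miR-181c-3p: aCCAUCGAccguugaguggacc

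miR-181a-2-3p differs from miR-181a-1-3p by U5C, which lies within the seed, and by U16C. miR-181c-3p differs from miR-181a-1-3p by U16G and U19G, so these strands share the seed CCAUCGA. The hairpins of miR-181a-5p hold the same 5p strand and unequal 3p strands, the mature strands being in capitals:
Mir181a-1: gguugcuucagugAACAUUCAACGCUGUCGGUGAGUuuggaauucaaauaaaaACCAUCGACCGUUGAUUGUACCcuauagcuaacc
Mir181a-2: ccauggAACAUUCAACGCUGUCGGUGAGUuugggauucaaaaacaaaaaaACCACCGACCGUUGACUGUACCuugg

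The family comes from 3 clusters of 2 hairpins in the GENCODE M21 annotation of GRCm38. The submitters' processing notes name GRCm39 and mm39, and since the deposited table is by name, the coordinates are those of the annotation alone. Mir181a-1 lies at chr1:137966455-137966541 and Mir181b-1 at chr1:137966639-137966718, 97 bases apart on the plus strand, in an exon of the long non-coding gene A430106G13Rik. Mir181a-2 lies at chr2:38852735-38852810 and Mir181b-2 at chr2:38853830-38853918, 1019 bases apart, in an intron of Nr6a1 on the opposite strand; Mir181b-2 also overlaps an exon of Gm44144, opposite. Mir181c lies at chr8:84178873-84178961 and Mir181d at chr8:84178716-84178787, 85 bases apart on the minus strand, in an intron of Nanos3 on the same strand. Counts of miR-181a-5p and miR-181b-5p can come from chromosome 1 or 2, which cannot be told apart from these counts.

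Library totals ran from 112914 to 871189 counts. Levels are given as counts per 1000000 counts (CPM) after TMM scaling, and 3 counts, the limit that a count of 0 allows, are 4.09 to 24.6 CPM on this scale, depending on the library. Libraries of replicates 5 to 7 are known from earlier results to stand apart from replicates 1 to 4 in both groups, for a reason the labels do not give, and they were shallower, at 112914 to 252014 counts against 229324 to 871189. Results are therefore also given within these sets. miR-223-3p, which defines neutrophils and other myeloid cells, averaged 142783 ± 40459 CPM with DMSO and 119314 ± 11586 CPM with 27HC (SD, n = 7). Of the 4 myeloid names listed, 2 were called lower with 27HC: miR-142a-3p, at 10913 and 3771 CPM (edgeR adjusted p 3.6e-05), and miR-142a-5p, at 2412 and 1451 CPM (edgeR adjusted p 0.0223). The 4 summed to 83291 to 216664 CPM with DMSO and to 113054 to 149157 CPM with 27HC. Of the myeloid, lymphoid, erythroid, stromal and liver names found, 0 were at 0 in all libraries. The 4 erythroid names, of which 1 was tested and not called, summed to 505 to 1062 CPM with DMSO and to 730 to 1126 CPM with 27HC. The 3 lymphoid names found of 4 (miR-150-5p, miR-150-3p and miR-342-3p) summed to 1057 to 1409 CPM with DMSO and to 790.1 to 1764 CPM with 27HC. Most of that sum was miR-342-3p, while miR-150-5p was called lower, at 254 and 130 CPM (edgeR adjusted p 0.0134), and miR-150-3p, at 27.6 and 65.0 CPM, was not called (edgeR adjusted p 0.103). The 6 stromal and endothelial names summed to 1015 to 2269 and 974 to 2365 CPM, and the liver name miR-122-5p lay at 2476 to 4587 and 1895 to 3672 CPM. These summed ranges overlapped between the groups. Their part in the results below was not tested.

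The family was a small part of the cargo, and its summed level overlapped between the groups. All 7 members made up 0.200% ± 0.0348 of a DMSO library and 0.196% ± 0.0323 of a 27HC library (SD, n = 7), or 1981 ± 194 CPM and 1980 ± 257 CPM. Sums ran from 1638 to 2189 CPM with DMSO and from 1660 to 2463 CPM with 27HC, so that the groups overlapped. In vesicle RNA, fewer vesicles of a kind and less of an RNA per vesicle cannot be told apart.

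The order of the levels was fixed at its top and loose below. Mature lengths differ little, from 22 to 24 bases, so CPM of the members is set side by side without a length correction. The order is that of counts in these libraries: capture of each sequence was not tested, and the rule for reads that fit 2 names is unknown. miR-181a-5p had the most counts in 14 of 14 libraries and miR-181b-5p came next in 14 of 14, with 58.9% and 26.4% of the 7407 counts of the family over all libraries. miR-181d-5p followed with 5.28% and was above miR-181c-5p (3.21%) in 10 libraries and below it in 3. miR-181a-2-3p (2.63%) and miR-181c-3p (2.48%) were each the higher of the pair in 7 libraries, so that these neighbours did not differ beyond their spread. miR-181a-1-3p was scarcest, with 1.08%. Among the 239 tested names, ordered by mean level, miR-181a-5p ranked 63, miR-181b-5p 92, miR-181d-5p 164, miR-181c-5p 203, miR-181c-3p 222 and miR-181a-2-3p 224.

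**Figure D1:**
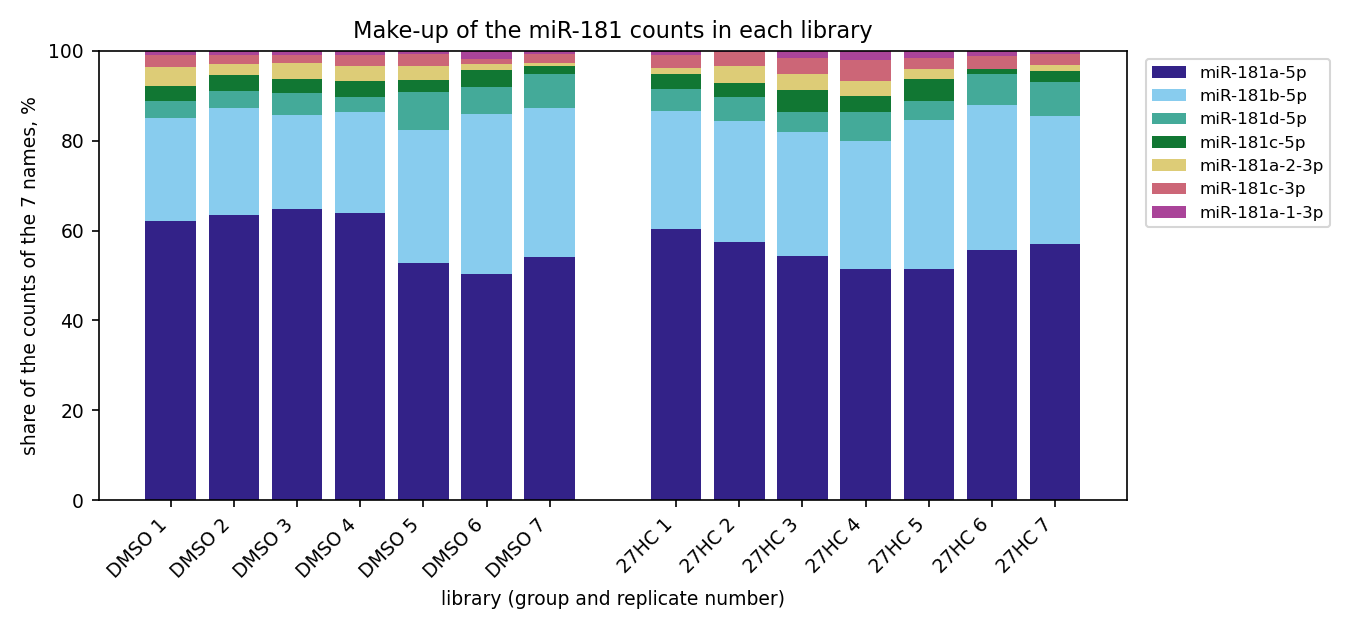
Each bar is 1 library (group and replicate number), divided by the share in percent of the counts of the 7 miR-181 names. miR-181a-5p takes 50.3 to 64.7% in DMSO and 51.4 to 60.3% in 27HC libraries, and DMSO replicates 1 to 4 lie at 62.1% or above.

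None of the tested members changed with 27HC beyond the threshold. In edgeR's quasi-likelihood test over all 239 tested names, 12.6% of the names were called at a Benjamini-Hochberg adjusted p under 0.05, and 0 of the 6 tested members were. At an unadjusted p under 0.05 stood 22.2% of all names and 1 of the 6 members, miR-181c-3p. DESeq2 called 32 and limma-voom 27 of the 239 names, and each called 0 of the 6. The median log2 fold change of the 6 was 0.071, beside 0.010 over all tested names, and the median of its absolute size was 0.090, beside 0.23 over all. The CPM of the groups overlapped for 7 of 7 members, while 5.44% of all tested names did not overlap.

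miR-181a-5p, the main guide strand, had its lowest, median and highest DMSO libraries at 1039, 1155 and 1374 CPM. The 27HC libraries lay at 854, 1053 and 1369 CPM, and 3 of 7 were under the lowest DMSO library. On the log2 scale the fold change came to −0.079 (SE 0.11, edgeR adjusted p 0.789), with a 95% interval of the fold from 0.804 to 1.11. This value had the lowest SE of the 6, on 124 to 1008 counts in a library. Its sign turned positive without DMSO replicate 3 (0.019), 27HC replicate 4 (0.018) or 27HC replicate 5 (0.0029), so that it carries no direction.

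miR-181b-5p had DMSO libraries at 390.04, 444.4 and 756.6 CPM (lowest, median, highest) and 27HC libraries at 474.2, 523.99 and 795.6 CPM. All 7 libraries with 27HC lay above the DMSO median, but only 1 lay above the highest DMSO library. How many of all tested names lie so was not counted. DMSO replicates 5 to 7 lay at 649.5 to 756.6 CPM. 27HC over DMSO gave a log2 difference of 0.10 with an SE of 0.18 (edgeR adjusted p 0.830) and a 95% interval of the fold from 0.822 to 1.40.

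The pair from the chromosome 8 cluster was scarcer. The lowest, median and highest values of miR-181d-5p were 60.5, 102 and 184 CPM with DMSO, and 80.2, 97.4 and 168 CPM with 27HC. All 27HC values lay inside the DMSO range. Its log2 fold change, 0.066 with an SE of 0.29 (edgeR adjusted p 0.934), was −0.013 under upper quartile scaling. Those of miR-181c-5p were 33.5, 60.7 and 79.6 CPM with DMSO, and 30.6, 60.3 and 96.2 CPM with 27HC, where 2 libraries lay above and 1 below all DMSO libraries. Its log2 fold change, 0.076 with an SE of 0.26 (edgeR adjusted p 0.934), was −0.021 under upper quartile scaling. The 95% intervals of the fold reached from 0.682 to 1.61 for miR-181d-5p and from 0.715 to 1.55 for miR-181c-5p. Changes of either sign within these limits thus remain possible. miR-181c-5p rested on as few as 4 counts in a library.

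**Figure D2:**
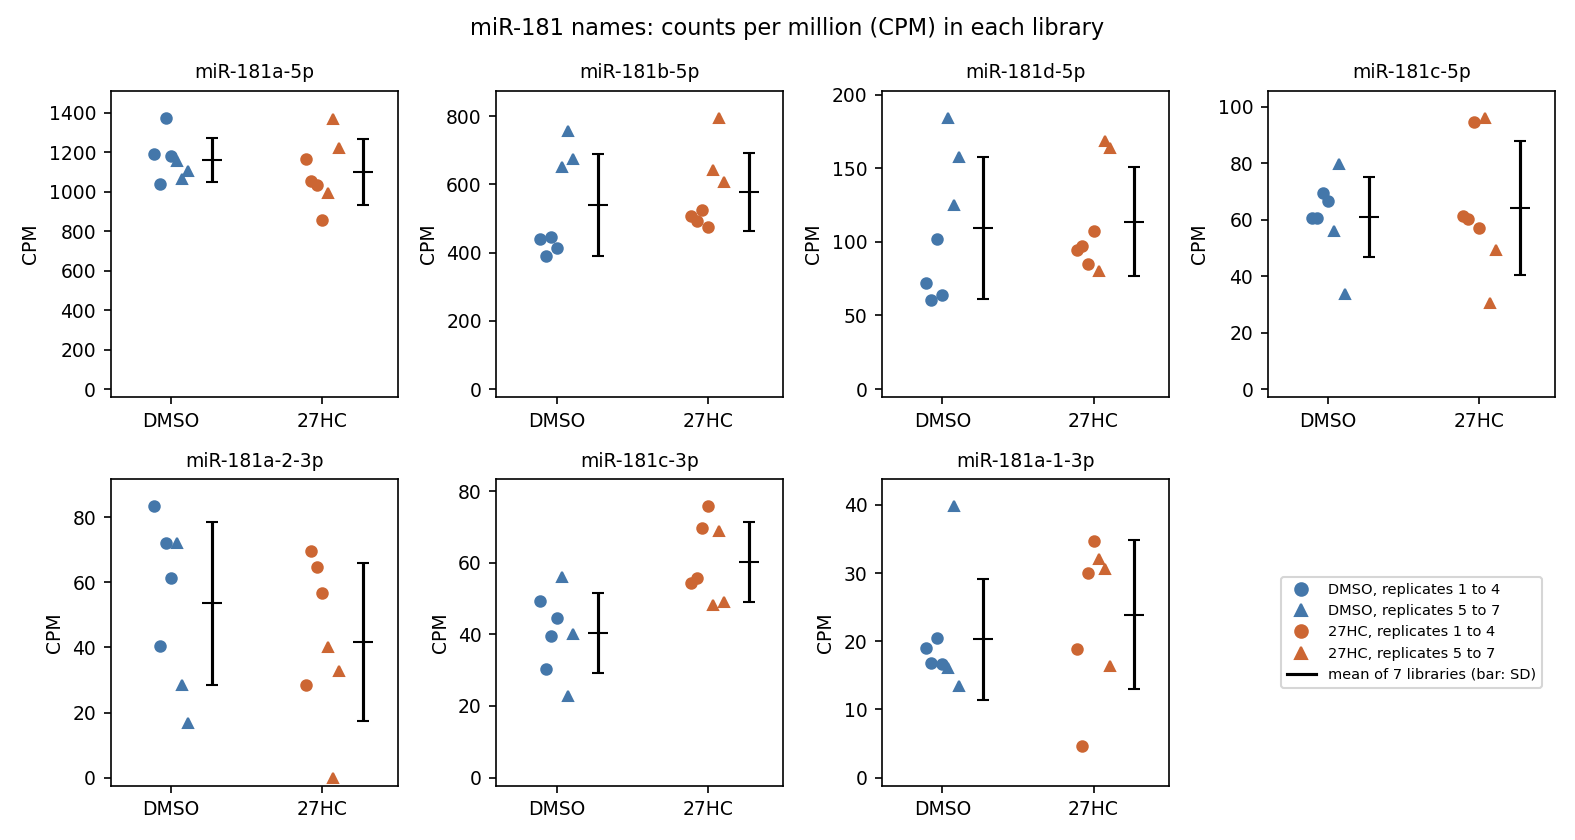
Each panel is 1 miR-181 name, with CPM on a linear axis and 1 point per library. Circles are replicates 1 to 4, triangles replicates 5 to 7, and the bar is the mean ± SD of 7. The groups overlap in every panel, and for miR-181b-5p the triangles lie above the circles in both groups.

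Among the 3p strands, miR-181c-3p came nearest to a call. Its DMSO libraries lay at 22.8, 40.2 and 56.1 CPM (lowest, median, highest) and its 27HC libraries at 48.1, 55.7 and 75.9 CPM. All 7 libraries with 27HC were above the DMSO median and 3 were above the highest DMSO library. The share of all tested names with such positions was not counted. The log2 fold change of 0.59 (SE 0.23) had an unadjusted p of 0.0211 and an edgeR adjusted p of 0.119, with a 95% interval of the fold from 1.07 to 2.12. It rested on 90 counts over all DMSO and 94 over all 27HC libraries. The adjusted p ran from 0.0586, without DMSO replicate 5, to 0.623, with no filter on low counts, and the 27HC fold change was positive in each alternative that tested the name. In replicates 1 to 4 alone it was 0.71 (edgeR adjusted p 0.109). In replicates 5 to 7 miR-181c-3p did not pass the filter, with 4 to 12 counts in DMSO and 6 to 9 in 27HC libraries. There it stood at 39.7 ± 16.7 CPM with DMSO and 55.4 ± 11.7 CPM with 27HC (SD, n = 3), and the groups overlapped.

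miR-181a-2-3p, made only by the chromosome 2 hairpin, had DMSO libraries at 16.8, 61.3 and 83.5 CPM (lowest, median, highest). In 27HC libraries its median was 40.1 CPM and its highest value 69.6 CPM, and replicate 6 had 0 counts, which at that depth allows up to 22.95 CPM. The groups overlapped. Its log2 fold change, −0.32 (edgeR adjusted p 0.792), had the widest SE of the 6, 0.46. miR-181a-1-3p, from the chromosome 1 hairpin, held 44 counts in DMSO and 36 in 27HC libraries, 1 to 15 in a library. It did not pass the filter, and a fit without the filter gave 0.16 (SE 0.59, edgeR adjusted p 0.951).

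**Figure D3:**
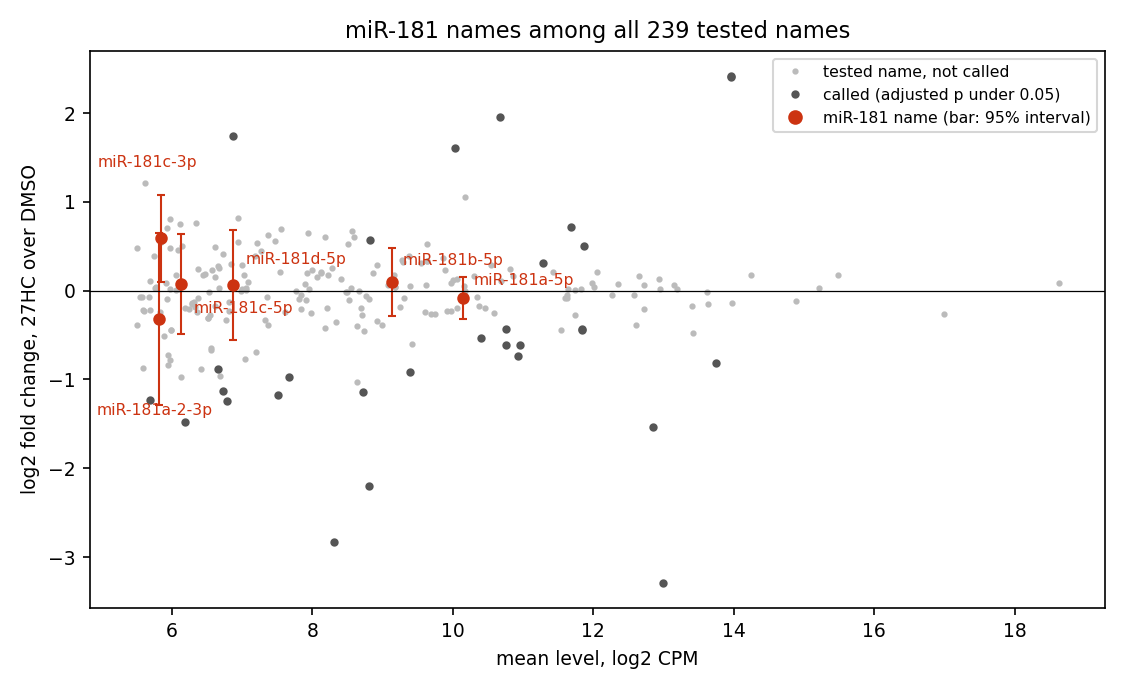
Log2 fold change of 27HC over DMSO against mean log2 CPM for the 239 tested names, with called names in dark grey and the 6 tested miR-181 names in red with 95% intervals. 5 of the 6 intervals include 0, and that of miR-181c-3p, from 0.10 to 1.08, belongs to a name that was not called after adjustment.

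Counts of 5p and 3p strands were unequal for most of the family. Those of miR-181a-5p and miR-181b-5p pool 2 hairpins each, so that they are not ratios within 1 hairpin. Over all libraries miR-181a-5p had 4363 counts, against 195 of miR-181a-2-3p and 80 of miR-181a-1-3p. The chromosome 2 strand miR-181a-2-3p exceeded miR-181a-1-3p in 12 of 14 libraries, 6 in each group. In pooled counts it was 2.91 times as high with DMSO (128 and 44 counts) and 1.86 times with 27HC (67 and 36 counts), and the difference of these ratios was not tested. miR-181b-1-3p and miR-181d-3p, the other 3p strands of these hairpins in the table, had 11 and 5 counts in all, against 1956 of miR-181b-5p and 391 of miR-181d-5p. The names of Mir181c were closer to even, with 238 counts of miR-181c-5p and 184 of miR-181c-3p, and the 3p strand was the higher in 3 libraries and equal in 2. In pooled counts the 5p strand was 1.56 times as high with DMSO (140 and 90 counts) and 1.04 times with 27HC (98 and 94 counts). miR-181c-5p is 1 base from the more abundant miR-181a-5p, and the rule for reads that fit both is unknown. The evenness is thus that of the counted names.

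Ratios between members within a library do not depend on the scaling, and 4 were compared by two-sided exact permutation tests with all 3432 assignments of the treatment labels, adjusted together. The log2 ratio of miR-181b-5p to miR-181a-5p averaged −1.14 ± 0.45 with DMSO and −0.93 ± 0.19 with 27HC (SD, n = 7), which is 0.21 higher with an exact permutation p of 0.272 (adjusted 0.543). For miR-181d-5p to miR-181a-5p the difference was 0.21 (exact p 0.446, adjusted 0.595), and for miR-181c-5p to miR-181a-5p it was 0.13 (exact p 0.660, adjusted 0.660). The arms of Mir181c, miR-181c-3p to miR-181c-5p, differed by 0.56 between the groups (exact p 0.132, adjusted 0.527), a ratio chosen after the values had been seen. None of these differences exceeded the spread between libraries.

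With DMSO, the spread itself followed the replicate numbers. In DMSO replicates 1, 2, 3 and 4, miR-181b-5p had 0.371, 0.375, 0.323 and 0.351 counts for each count of miR-181a-5p. In DMSO replicates 5, 6 and 7 it had 0.563, 0.711 and 0.609, all above the first set. The 27HC libraries lay above the first set of DMSO and overlapped the second. They had 0.437, 0.467, 0.507 and 0.556 in replicates 1 to 4 and 0.645, 0.581 and 0.497 in replicates 5 to 7. Within 27HC the sets of replicates thus overlapped. In replicates 1 to 4, all 4 libraries with 27HC were thus above all 4 DMSO libraries, and in replicates 5 to 7 the groups overlapped. How many ratios outside the family separate in this way was not counted. In the edgeR fit of replicates 1 to 4, 30.2% of 242 names had an unadjusted p under 0.05. That is a share of single names by p, not of ratios by overlap.

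miR-181d-5p followed the same course with DMSO. For each count of miR-181a-5p it had 0.0607, 0.0583, 0.0744 and 0.0542 counts in DMSO replicates 1 to 4, and 0.160, 0.118 and 0.142 in DMSO replicates 5 to 7. In 27HC libraries the values were 0.0813, 0.0925, 0.0821 and 0.126 in replicates 1 to 4, and 0.0806, 0.123 and 0.134 in replicates 5 to 7. Again the treatments did not overlap in the first set and overlapped in the second. How many ratios outside the family do so was not counted for this ratio either. Within 27HC the sets of replicates overlapped, and the lowest value was that of replicate 5.

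Within replicates 1 to 4 the log2 ratio to miR-181a-5p was 0.47 higher with 27HC for miR-181b-5p and 0.61 higher for miR-181d-5p, each with an exact permutation p of 0.0286, the smallest that 4 against 4 allow (adjusted 0.0571). Within replicates 5 to 7 it was −0.13 and −0.32 (exact permutation p 0.5 and 0.3, where the smallest possible is 0.1). The difference of the change between the sets, added after the data were seen and tested by permuting treatment within the sets, was −0.59 for miR-181b-5p (exact p 0.0100, adjusted 0.0200) and −0.93 for miR-181d-5p (exact p 0.00714, adjusted 0.0200). For miR-181b-5p the adjusted p was 0.0600 without DMSO replicate 6 and 0.0571 without 27HC replicate 7, and for miR-181d-5p it was at most 0.0400 with any 1 library left out. For miR-181c-5p the difference was −0.36 (exact p 0.589, adjusted 0.785), and for the arms of Mir181c it was −0.056 (exact p 0.951, adjusted 0.951). Permuting treatment within the sets assumes no effect in either set, not equal effects in both. A low p therefore does not by itself show that the effects were unequal. This test was prompted by the separation seen in replicates 1 to 4, so that its p-values are no independent evidence of a difference. Depth moved with the sets, as given above, and its part in these ratios was not tested.

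**Figure D4:**
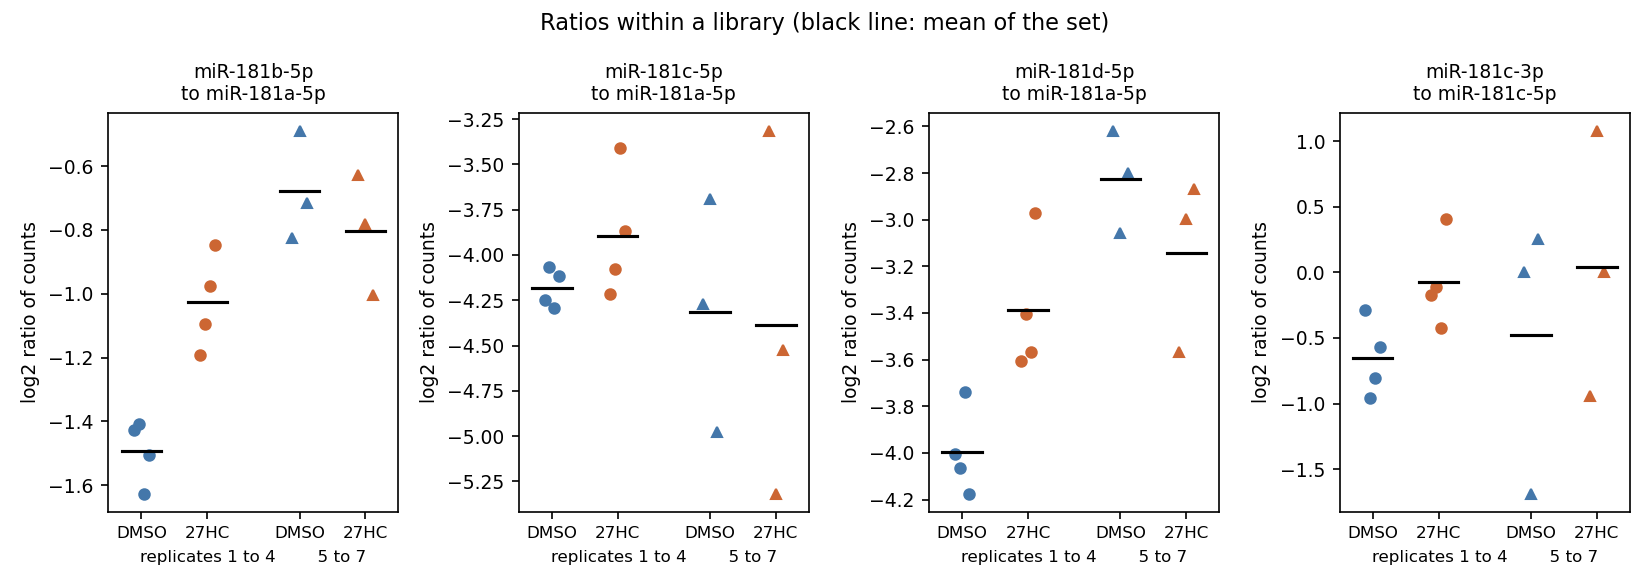
Log2 ratios of counts within each library, by set of replicates and treatment, with a line at the mean of each set. For miR-181b-5p and miR-181d-5p over miR-181a-5p, DMSO replicates 1 to 4 lie lowest and do not overlap the 27HC libraries of the same replicates. Such separation was not counted for ratios outside the family.

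Taken name by name, the difference between the sets was not called. The edgeR interaction of treatment and set called 0.0% of the 239 names at an adjusted p under 0.05, with 10.0% at an unadjusted p under 0.05 and 0 of the 6 members among these. The interaction was 0.33 (SE 0.21, edgeR adjusted p 0.514) for miR-181a-5p, −0.27 (SE 0.21, edgeR adjusted p 0.584) for miR-181b-5p and −0.52 (SE 0.43, edgeR adjusted p 0.614) for miR-181d-5p. In levels, miR-181b-5p stood at 422 ± 25.2 CPM in DMSO replicates 1 to 4 and 499.6 ± 21.5 CPM in 27HC replicates 1 to 4 (SD, n = 4), with an unadjusted p of 0.0492 and an edgeR adjusted p of 0.165 in the fit of these 8 libraries, where 17.4% of 242 names were called and 30.2% had an unadjusted p under 0.05. Of the 6 members tested there, 0 were called and 2 had such a p, miR-181b-5p and miR-181c-3p. In replicates 5 to 7 it stood at 693 ± 56.1 CPM and 681 ± 101 CPM (SD, n = 3), and in the fit of those 6 libraries 6.06% of 198 names were called and 0 of the 3 members tested.

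Of the 15 pairs of tested members, miR-181b-5p and miR-181d-5p had the highest Pearson r between their log2 CPM over the 14 libraries, 0.78. These names differ by few bases and share libraries, depth and the split of the replicates, and within replicates 1 to 4 and within replicates 5 to 7 the r was 0.71 and 0.11. miR-181a-5p, made in clusters with miR-181b-5p, had an r of 0.14 with it, and of −0.22 and 0.36 within the sets. For miR-181c-5p and miR-181d-5p, the pair of the chromosome 8 cluster, the r was −0.59, and −0.029 and −0.77 within the sets. The tested names outside the family most like miR-181a-5p in log2 CPM over the 14 libraries were miR-32-5p (r 0.62), miR-6240 (r 0.61), miR-30a-5p (r 0.60), let-7e-5p (r 0.54) and miR-26b-5p (r 0.53), all moderate and given as a description.

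Of 13 miRNAs listed as regulators of blood cells, all tested, 1 was called higher and 5 lower with 27HC, with a median log2 fold change of −0.063, while 3.77% and 8.79% of all tested names were called higher and lower. The list was drawn up with earlier results of these data known. miR-155-5p, induced in activated immune cells, had a log2 fold change of −1.48 with an SE of 0.40 (edgeR adjusted p 0.0216), and miR-150-5p, high in mature lymphocytes, one of −0.97 with an SE of 0.24 (edgeR adjusted p 0.0134). The 1 name of the list called higher was miR-92a-3p, whose log2 value was 0.71 (edgeR adjusted p 0.00123). The decrease of miR-150-5p was not shared by the other lymphoid names found, which are outside this list. Their log2 values were 1.22 for miR-150-3p and 0.089 for miR-342-3p, neither of them called (edgeR adjusted p 0.103 and 0.833). miR-181a-5p is known from lymphocytes as miR-150-5p is, and its value of −0.079 was not called either. Whether miR-181a-5p changed less than miR-150-5p was not tested.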

How the data were processed

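The deposited values were the authors' raw counts, whole numbers per mature miRNA name and library. Per the labels' protocols, vesicle RNA was prepared using miRNeasy Micro columns and sequenced from QIAseq miRNA libraries. The aligner, the counting tool, the use of molecular identifiers and the rule for reads that match several names are not given in the sources used here. The submitters' processing notes name R 4.1.2, edgeR, limma, GRCm39 and mm39, with no role. A count is thus not known to be a read or a molecule, and counting limits do not cover duplicated reads. 0 columns and 0 libraries were left unmatched to a label.

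All 1695 names entered 1 fit: edgeR 4.0.16 in R 4.3.3, quasi-likelihood test, TMM scaling, treatment as the only term. filterByExpr (minimum count 10, minimum total 15) left 239 names with 99.4% of the counts. A name was called at an adjusted p (Benjamini-Hochberg) under 0.05. Each SE was the fold change divided by the root of F, with 95% intervals from the total degrees of freedom. The step was tested on simulated data with changes larger than that of any member and with no sets of replicates. That test does not show how small a change could be called here. Log2 CPM for correlations used a prior count of 2, and ratios added 0.5 to each count. All 42 pairs of libraries within a group differed by more than sampling noise (lowest chi-square per degree of freedom 5.57).

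The members, lists, sets of replicates and tests were chosen with earlier results of these data known. Named miRNAs are the 7 members, the other arms of their hairpins, the 5 names most correlated with miR-181a-5p, and list members. miR-181b-2-3p and miR-342-5p were looked for but are not among the 1695 names, so they were not analysed here. Alternatives covered scaling, filter, DESeq2 1.42.0, limma-voom (limma 3.58.1), a robust fit, the replicate block, the set of replicates, each library left out and the pseudocount.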

Additional observations from a re-analysis of the deposited data

Results flagged for a closer look

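Of 28 groups of 7 libraries examined, over the member levels, the other arms, the 4 ratios and the family sum, 3 had a highest library well apart from the rest. The rule flags about 1 in 20 groups by chance where values are continuous, which does not hold for the sparse counts of miR-181b-1-3p and miR-181d-3p: a lone count among zeros always meets it. miR-181a-1-3p reached 39.8 CPM (7 counts) in DMSO replicate 6 and at most 20.4 CPM in the other DMSO libraries. miR-181b-1-3p, not a member, reached 32.5 CPM (7 counts) in replicate 2 of 27HC and at most 3.16 CPM in the others of that group, and it had 0 counts in 10 of the 14 libraries. miR-181d-3p, not a member, reached 4.99 CPM in replicate 3 of 27HC, a single count, and at 0 in the other 27HC libraries.

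The 27HC change of 2 ratios was flagged by the comparison of the sets of replicates. The change in replicates 5 to 7 minus that in replicates 1 to 4 was estimated on the log2 scale. It was −0.59 for miR-181b-5p to miR-181a-5p and −0.93 for miR-181d-5p to miR-181a-5p (exact permutation adjusted p 0.0200 for both). The test assumes no treatment effect in either set, so that a low p does not by itself show unequal effects. It was added after the separation in replicates 1 to 4 had been seen and is no independent evidence of that separation. For miR-181b-5p the adjusted p was 0.0600 without DMSO replicate 6 and 0.0571 without 27HC replicate 7. miR-181b-5p and miR-181d-5p share all but few bases and the same denominator, so that these are not independent results.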

How the results depend on the processing

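No member was called in any of the 26 alternatives that tested it, of which a mean count of at least 100 tested only miR-181a-5p and miR-181b-5p, and replicates 5 to 7 only these and miR-181d-5p. Of the alternative fold changes, 137 of 149 kept their sign. Each of the 12 reversals concerned a value that was not called, and the cause was not tested. miR-181a-5p gave 0.019 with a mean count of at least 100 and 0.12 in replicates 5 to 7, where miR-181b-5p gave −0.017 and miR-181d-5p −0.16. Upper quartile scaling gave −0.021 for miR-181c-5p and −0.013 for miR-181d-5p, with a shift of −0.091 in the median of all names, and no filter gave −0.028 for miR-181c-5p. With 1 library left out, log2 fold changes ran from −0.12 to 0.019 for miR-181a-5p, 0.022 to 0.22 for miR-181b-5p, −0.035 (without 27HC replicate 3) to 0.24 for miR-181c-5p, −0.052 (without DMSO replicate 2) to 0.28 for miR-181d-5p, −0.44 to −0.065 for miR-181a-2-3p and 0.48 to 0.73 for miR-181c-3p. Calls over all names numbered 30, 21 to 34 with 1 library left out and 12 in replicates 5 to 7, where fewer names were tested on fewer libraries.

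In replicates 5 to 7 the ratios to miR-181a-5p reversed, to −0.13 for miR-181b-5p, −0.074 for miR-181c-5p and −0.32 for miR-181d-5p. With 1 library left out they ran from 0.13 to 0.32, 0.00086 to 0.33 and 0.099 to 0.36, and the ratio of the Mir181c arms from 0.37 to 0.71. The difference between sets reversed for ratios that were not called: for miR-181c-5p to miR-181a-5p (−0.89 to 0.11) to 0.11 without 27HC replicate 6, and for the Mir181c arms (−0.66 to 0.44) to 0.046, 0.18 and 0.31 without DMSO replicates 2, 5 and 7 and to 0.10 and 0.44 without 27HC replicates 4 and 5. The interaction with the set called 9 of 1695 names with no filter, where that of miR-181c-3p became 0.068 in place of −0.13, and RLE size factors gave −0.031 in place of 0.030 for miR-181c-5p.

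Same-numbered libraries deviated together with correlations from 0.069 to 0.60, and 2 of 7 correlated best with their own number. With the replicate number as a block, 37 names were called, 0 of them members, and the adjusted p of the ratios was at least 0.5. Depth limits the 3p strands and miR-181c-5p, with under 10 counts in some libraries.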
